A study of Mus musculus with 32 samples.

Results

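The expression of 9 complement genes was followed in cultured mouse chondrocytes exposed to the inflammatory cytokine interleukin-1β (IL-1β) with or without the loss of 1 of 3 genes. These 9 genes, of the 41388 in the count files, were found by matching their symbols to the Ensembl identifiers of the files. They are C3 (the protein on which all complement pathways converge), the alternative pathway proteases Cfb and Cfd, the classical pathway genes C2, C4b, C1ra and C1s1, and the regulators Serping1 and Cd55. Total RNA depleted of ribosomal RNA was sequenced from primary sternal chondrocytes of C57BL/6 newborn pups, cultured without passage, in 32 libraries, 2 for each of 16 conditions. Wild type cells received no virus and were untreated or exposed for 24 h to FX11 (40 µM, an inhibitor of lactate dehydrogenase A), IL-1β (10 ng/mL) or both. Cells of the lines labelled LDHA flox, NAMPT flox and NFKBIZ flox, which carry loxP-flanked Ldha, Nampt or Nfkbiz, received for 24 h an adenovirus that encodes green fluorescent protein alone (GFP) or with Cre recombinase (Cre), and then 24 h with or without IL-1β. All 24 floxed libraries thus carry floxed alleles and adenovirus, Cre acts in whichever cells the virus enters, and no library of wild type cells with virus was analysed here. Nfkbiz encodes IκBζ, a nuclear cofactor of NF-κB. Ldha encodes the lactate-producing subunit of lactate dehydrogenase, and Nampt encodes the enzyme that salvages nicotinamide into NAD. Whether the 2 libraries of a condition came from separate litters or cultures is not stated, so p-values measure the spread between libraries, which may be technical.

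Complement is a cascade of plasma proteins that tags surfaces and calls in inflammatory cells. In the classical pathway, C1r and C1s, the proteases of the C1 complex, cleave C4 and C2 to form the enzyme that splits C3. In the alternative pathway, factor D cleaves factor B, which amplifies C3 cleavage, while the C1 inhibitor encoded by Serping1 blocks C1r and C1s and CD55 on the cell surface speeds the decay of the C3-splitting enzymes. The liver makes most of the circulating proteins, but stimulated mesenchymal cells and chondrocytes also transcribe several of these genes, and complement fragments are found in osteoarthritic joints.

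The libraries held 15830658 to 39959888 counted reads, with a median of 25363482. Values are CPM, the reads of a gene relative to its library total, after TMM scaling, which adjusts totals for composition. In the NFKBIZ flox line the Nfkbiz mRNA with IL-1β was at 13.3% of the GFP level after Cre, Ldha in LDHA flox was at 4.97% and Nampt in NAMPT flox was at 7.61%. Without IL-1β these mRNAs were at 54.2%, 12.8% and 11.9%. With IL-1β, Nfkbiz mRNA was also lower after Cre in LDHA flox (40.1%) and NAMPT flox (31.7%). How much of the 13.3% reflects deletion alone was not tested. Over all libraries 9 chondrocyte markers summed to 13066 to 85134 CPM, with Col2a1 at 11252 CPM or more and Matn1 as low as 4.18 CPM. Fibroblast and perichondrium markers, 6 in number, summed to 680 to 7263 CPM. A list of 10 leukocyte markers summed to 15.1 to 54.3 CPM in the floxed lines and to 50.6 to 178 CPM in wild type. Titles come in 2 styles, a bare number (12 libraries) and the word Sample with a number (20 libraries), called here set 1 and set 2. The labels do not say what separates them, and all 8 NFKBIZ flox libraries are in set 2. In 2 wild type libraries of set 2 the values go against the labels, as described with the wild type results. In bulk RNA, fewer cells of a type and less mRNA per cell cannot be told apart.

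All 9 genes are protein-coding on GRCm38. C3 lies at chr17:57203970-57228136 (minus strand). Cfb (chr17:34856374-34862518), C2 (chr17:34862604-34898265) and C4b (chr17:34728380-34743882) lie near one another on the minus strand of the same chromosome. C1ra (chr6:124512405-124523443, plus) and C1s1 (chr6:124530345-124542359, minus) are neighbours, Cfd lies at chr10:79890853-79892655 (plus), Serping1 at chr2:84765387-84775444 (minus) and Cd55 at chr1:130439027-130462744 (minus). Counting limits apply to several of them. The readthrough gene Gm20547 shares 2246 of the 2825 exon bases of Cfb and 1656 of the 3872 of C2 on the same strand and had 0 counts in all 32 libraries. Reads in shared exons are ambiguous for the counter, so that 20.5% of the exon bases of Cfb and 57.2% of those of C2 were left to count on, and both genes read low. Of the 50-base stretches in the transcripts of C4b, 34.6% also occur in C4a. The share was 48.0% for C1ra with C1rb, 21.8% for C1s1 with C1s2 and 8.0% for Cd55 with Cd55b. Unique alignment can drop reads that lie wholly within such stretches, and how many were dropped was not tested. Antisense genes overlap C1s1 and Cd55, and Zbtb12 overlaps C2 on the other strand. Whether counting used strand is not stated.

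Promoters of 5 members were searched. That of Cfd, which had no match and a log2 fold change of 1.59 ± 0.40 with IL-1β when no CPM minimum was set, is not shown. Promoters are shown for 4 members, 3 of which rose with IL-1β (C3, C1ra and C1s1), while Cd55 did not pass that test. Each is the 250 bases before the RefSeq start site on GRCm38.p6, read 5′ to 3′ on the strand of the gene, and capitals mark every match to TTNNGNAA, a core of C/EBP sites, on either strand.
C3, chr17:57228137-57228386 (minus): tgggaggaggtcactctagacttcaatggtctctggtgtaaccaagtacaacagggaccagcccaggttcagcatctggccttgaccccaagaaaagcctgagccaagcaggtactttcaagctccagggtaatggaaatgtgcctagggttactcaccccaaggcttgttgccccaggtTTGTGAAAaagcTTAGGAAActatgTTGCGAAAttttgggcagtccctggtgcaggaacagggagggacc
C1ra, chr6:124512371-124512620 (plus): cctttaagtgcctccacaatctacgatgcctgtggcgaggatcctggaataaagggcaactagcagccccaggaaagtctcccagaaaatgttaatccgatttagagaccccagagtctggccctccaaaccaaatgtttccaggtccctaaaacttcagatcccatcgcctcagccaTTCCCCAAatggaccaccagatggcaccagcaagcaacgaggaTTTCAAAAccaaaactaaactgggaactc
C1s1, chr6:124542360-124542609 (minus): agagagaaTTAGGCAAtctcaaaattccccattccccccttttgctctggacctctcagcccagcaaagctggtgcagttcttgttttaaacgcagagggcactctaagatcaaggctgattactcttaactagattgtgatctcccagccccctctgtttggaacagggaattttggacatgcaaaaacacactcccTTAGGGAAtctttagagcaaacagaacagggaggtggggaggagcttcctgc
Cd55, chr1:130462745-130462994 (minus): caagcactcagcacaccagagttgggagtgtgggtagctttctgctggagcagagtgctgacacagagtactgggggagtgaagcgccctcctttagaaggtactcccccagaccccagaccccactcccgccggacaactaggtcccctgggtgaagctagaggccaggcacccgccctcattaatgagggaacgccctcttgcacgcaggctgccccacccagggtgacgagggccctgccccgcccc

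The C3 promoter held 3 such matches, beginning 70, 58 and 45 bases before the start, the last of them on both strands. Among 32851 mouse promoters of this length 36.8% held at least 1 match and 2.61% held matches at 3 or more positions. C1ra (72 and 29 bases before the start) and C1s1 (242 and 52) had 2 matches each, a second start site of C1s1 had 1, and Cd55 and Cfd had none. The RefSeq start used for C1ra lies downstream of the gene start given above (124512405). Most of the C1ra window, with both of its matches, is therefore inside the gene span as counted. Neither the NF-κB consensus (in 3.9% of promoters) nor an interferon regulatory factor motif, 2 copies of GAAA separated by 2 bases (in 2.98%), was present in these windows of C3, C1ra, C1s1, Cfd or Cd55. A match is a string of letters, not a shown binding site.

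IL-1β raised 5 of the 6 members that could be tested across the GFP controls of the 3 floxed lines, and C3 rose most. In the 12 GFP libraries, 6 with and 6 without IL-1β, 56.2% of 14283 genes were called at an adjusted p of 0.05 or less, so that a call on its own says little here and the size carries the description. The median log2 fold change of the 6 members was 2.38 against −0.0083 over all genes tested. Cfb, Cfd and C2 were under the CPM minimum of this comparison.

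C3 stood at 1.66 and 1.33 CPM in LDHA flox, 1.37 and 1.37 in NAMPT flox and 3.47 and 3.12 in NFKBIZ flox without IL-1β. With IL-1β it stood at 488 and 478, 380 and 384, and 942 and 890 CPM. No library of one condition came near the other, and the NFKBIZ flox line lay above the other lines in both. The log2 fold change was 8.19 ± 0.06 (SE), a 292-fold rise (edgeR's quasi-likelihood test, adjusted p = 9.65e-22).

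The C1 proteases rose as well. C1s1 went from 1.75 to 5.23 CPM without IL-1β to 20.4 to 87.2 CPM with it, a log2 fold change of 3.70 ± 0.13 (edgeR adjusted p = 3.64e-13). C1ra went from 14.6 to 28.2 CPM to 55.8 to 163 CPM, a log2 fold change of 2.31 ± 0.07 (edgeR adjusted p = 3.06e-14). For both genes the lowest library with IL-1β lay above the highest without it.

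C4b, a subunit of the classical C3-splitting enzyme, was the most abundant member before stimulation and rose 2.01-fold (log2 1.00 ± 0.08, edgeR adjusted p = 1.18e-08). Its libraries overlapped across lines, from 62.6 to 178 CPM without and 99.0 to 398 CPM with IL-1β, but not within a line. Serping1, the C1 inhibitor, rose 5.48-fold (log2 2.45 ± 0.23, edgeR adjusted p = 1.25e-07), from 0.356 to 2.84 CPM to 5.01 to 11.6 CPM. Its resting level in NFKBIZ flox, 0.356 and 0.380 CPM, was below the 1.74 to 2.84 CPM of the other lines. In the same resting GFP libraries the 6 fibroblast and perichondrium markers were also lower in NFKBIZ flox, at 791 and 962 CPM summed against 3681 to 4470 CPM. Their part in the level was not tested.

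Cd55 did not pass the test, at 2.11 to 3.17 CPM without and 1.78 to 2.49 CPM with IL-1β (log2 −0.14 ± 0.15, edgeR adjusted p = 0.439). Per kilobase of exon, the mean levels without IL-1β ran from C4b (17.7 CPM per kb) through C1ra (7.22) and C1s1 (1.03) to Serping1 (0.673), Cd55 (0.529) and C3 (0.399). With IL-1β, C3 led at 115 CPM per kb, above C4b (37.6), C1ra (36.9), C1s1 (14.4), Serping1 (3.52) and Cd55 (0.477). C4b and C1ra lay closer together with IL-1β than the spread of either over the lines.

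**Figure D1:**
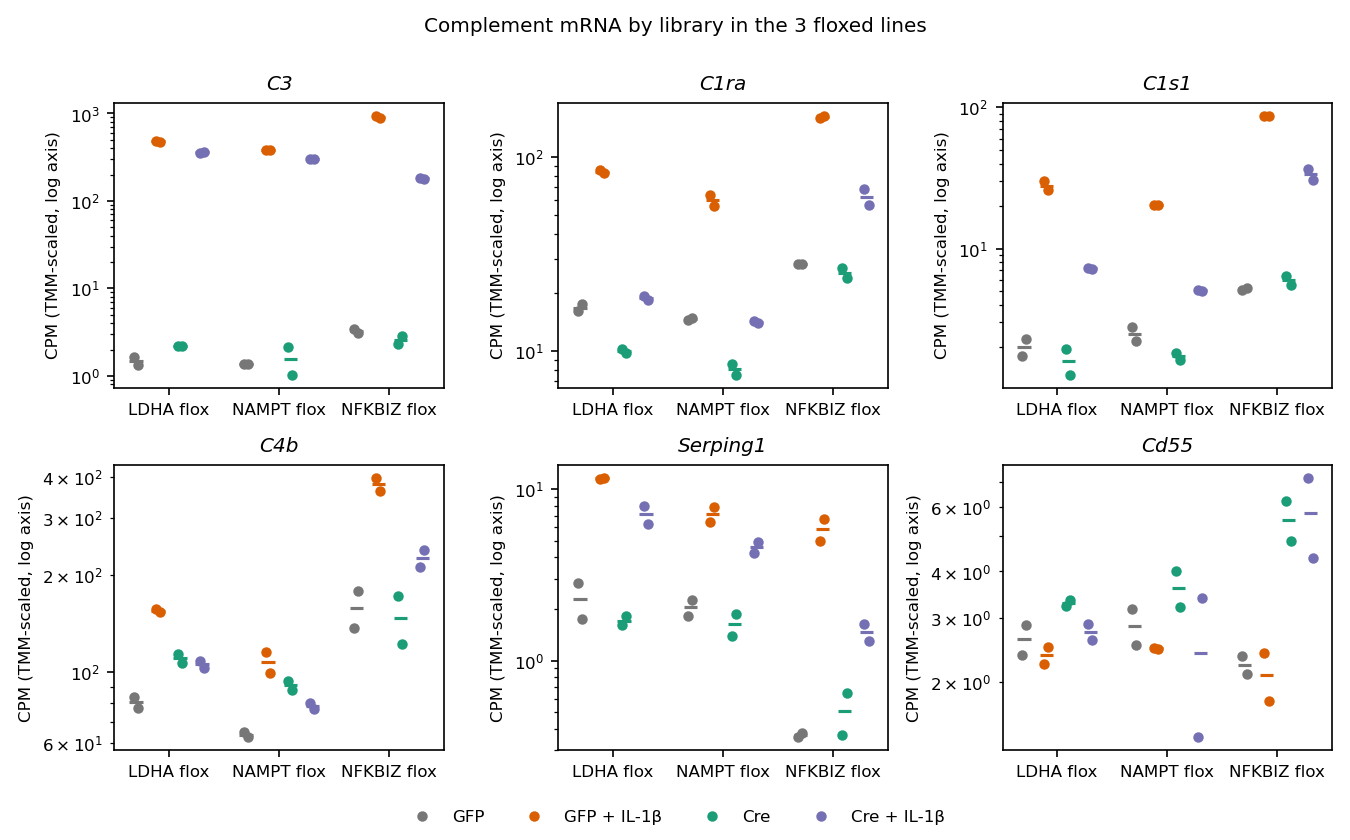
Level of 6 complement genes in each of the 24 floxed libraries (points, CPM on a log axis) with the mean of 2 libraries (line), by line, virus and IL-1β. C3 with IL-1β fell from 942 and 890 to 183 and 181 CPM after Cre in NFKBIZ flox, while C1ra and C1s1 fell in all 3 lines and Cd55 after Cre lay highest in NFKBIZ flox.

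The low members are better read as counts. Cfb, whose product forms the alternative pathway enzyme with C3b, had 2 to 12 counts in the 6 GFP libraries without IL-1β and 8 to 57 with it. In LDHA flox and NFKBIZ flox it met the minimum of 1 CPM only through the GFP libraries with IL-1β, and Cfd in LDHA flox and NAMPT flox likewise, so that they could be tested within a line only because they were high there. Across the 12 GFP libraries with no minimum, the log2 fold change of Cfb was 2.77 ± 0.37 (edgeR adjusted p = 6.69e-13) and that of Cfd 1.59 ± 0.40 (edgeR adjusted p = 0.000379). By line and with no minimum, the Cfb difference was 3.03 ± 0.68 in LDHA flox (edgeR adjusted p = 0.000122), 3.99 ± 0.65 in NFKBIZ flox (edgeR adjusted p = 1.9e-08) and 1.15 ± 0.80 in NAMPT flox (edgeR adjusted p = 0.401), where it had 12 and 2 counts without and 13 and 8 with IL-1β.

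Cfd, the protease that cleaves factor B, had 15 and 8 counts without and 54 and 29 with IL-1β in LDHA flox. The log2 difference there was 1.86 ± 0.55 with no minimum (edgeR adjusted p = 0.00614) and 1.87 ± 0.45 with it (edgeR adjusted p = 0.0117). The latter call was lost without the set 1 library with IL-1β (adjusted p = 0.0651) or the set 2 library without it (adjusted p = 0.0641). In NAMPT flox the Cfd difference was 1.83 ± 0.78 (edgeR adjusted p = 0.0949), with an adjusted p of 0.0497 with no minimum and of 0.0318 without the set 1 resting GFP library, where the difference was 4.28. In NFKBIZ flox Cfd had 0 to 6 counts in all 8 libraries. C2 stayed between 9 and 33 counts in the 12 GFP libraries and passed no test.

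Line by line, 7 of 9 members tested were called higher with IL-1β in LDHA flox GFP cells (27.9% of 15880 genes called), 5 of 8 in NAMPT flox (35.0% of 16136) and 6 of 8 in NFKBIZ flox (26.8% of 15356), and none was called lower. Without the members that met the minimum through 1 condition alone (Cfb, Cfd and C2 in LDHA flox, Cfd in NAMPT flox, Cfb and C2 in NFKBIZ flox) these were 5 of 6, 5 of 7 and 5 of 6. The C3 rise was 8.31 ± 0.11, 8.14 ± 0.18 and 8.13 ± 0.14 on the log2 scale, and Serping1 had its largest estimate in NFKBIZ flox (log2 3.99 ± 0.40, against 2.31 ± 0.24 and 1.84 ± 0.25). These differences between lines were not tested.

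Under IL-1β, 5 members fell (C3, Serping1, C1ra, C1s1 and C4b) and Cd55 rose after Cre in NFKBIZ flox, of 6 tested besides Cfb and C2. In this comparison 17.4% of 15356 genes were called, and the median log2 fold change was −1.38 over these 6 members and −0.0087 over all genes. C3 fell from 942 and 890 CPM after GFP to 183 and 181 CPM after Cre (log2 −2.35 ± 0.10, edgeR adjusted p = 1.08e-08), to 19.8% of the GFP level. Serping1 fell from 5.01 and 6.69 CPM to 1.63 and 1.30 (log2 −2.01 ± 0.33, edgeR adjusted p = 0.00106). Cfb, which met the minimum only through these GFP libraries, had 49 and 57 counts after GFP and 6 and 15 after Cre (log2 −2.44 ± 0.53, edgeR adjusted p = 0.00762, and 0.000232 with no minimum).

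The classical pathway genes fell by less. C1ra went from 158 and 163 CPM to 68.1 and 56.4 (log2 −1.38 ± 0.11, edgeR adjusted p = 2.89e-06). C1s1 went from 87.2 and 86.5 CPM to 36.6 and 30.6 (log2 −1.39 ± 0.11, edgeR adjusted p = 3.61e-06), and C4b from 398 and 364 to 210 and 238 (log2 −0.78 ± 0.16, edgeR adjusted p = 0.00497). The C2 value, 21 and 19 counts after GFP and 16 and 21 after Cre, did not pass (log2 −0.24 ± 0.48). Calls for Cfb (adjusted p = 0.052), Cd55 (0.0697) and C4b (0.0579) were lost when 1 of the GFP libraries with IL-1β was left out.

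Cd55, which shields cells by dismantling the C3-splitting enzymes, went the other way, from 2.41 and 1.78 CPM after GFP to 7.18 and 4.35 CPM after Cre (log2 1.45 ± 0.30, edgeR adjusted p = 0.00516). Without IL-1β it stood at 2.36 and 2.11 CPM after GFP and at 6.22 and 4.83 after Cre, a log2 difference of 1.29 ± 0.30 that missed the threshold (edgeR adjusted p = 0.178) in a comparison where 0.26% of genes were called. The adjusted p was 0.0403 with DESeq2 and 0.00079 with no minimum. In both conditions the Cre libraries lay above the GFP libraries. Its 4 Cre libraries in NFKBIZ flox, at 4.35 CPM or more, lay above the 4.02 CPM that was the highest in any other floxed library.

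Without IL-1β, Nfkbiz mRNA in NFKBIZ flox was at 54.2% of the GFP level after Cre. None of the 8 members tested was called there by edgeR's quasi-likelihood test. Of the members, 3 had an unadjusted p under 0.05 in that fit, 1 was called with DESeq2 and 0 with voomWithQualityWeights. C3 was at 3.47 and 3.12 CPM after GFP and 2.29 and 2.85 after Cre (log2 −0.37 ± 0.16, edgeR adjusted p = 0.793). Cfb had 3 and 4 counts after GFP and 0 and 0 after Cre, which is at or near the floor of 3 counts.

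The test of the difference between the IL-1β response after Cre and after GFP called 4 of 8 members in NFKBIZ flox (5.19% of genes called), all lower after Cre. C3 lost 1.98 ± 0.19 log2 units of its response (log2 −1.98, edgeR adjusted p = 7.26e-05), and the ratio of mean CPM with and without IL-1β went from 278 after GFP to 70.7 after Cre. The response of C1s1 changed by −1.58 ± 0.19 (edgeR adjusted p = 0.00029) and that of C1ra by −1.21 ± 0.16 (edgeR adjusted p = 0.000635). Serping1 changed by −2.45 ± 0.61 (edgeR adjusted p = 0.0365), from resting counts of 8 to 14, and leaving out any 1 of 6 of the 8 libraries ended that call. It was also lost with voomWithQualityWeights (−2.38, adjusted p = 0.0888). For Cd55 the response did not change past the threshold (0.16 ± 0.42, edgeR adjusted p = 0.9, and −0.25 without 1 of the Cre libraries with IL-1β), nor for C4b (−0.67 ± 0.23, edgeR adjusted p = 0.13), which was called with no minimum (−0.66, adjusted p = 0.00116) and without 1 of the resting Cre libraries (−0.88, adjusted p = 0.0339).

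**Figure D2:**
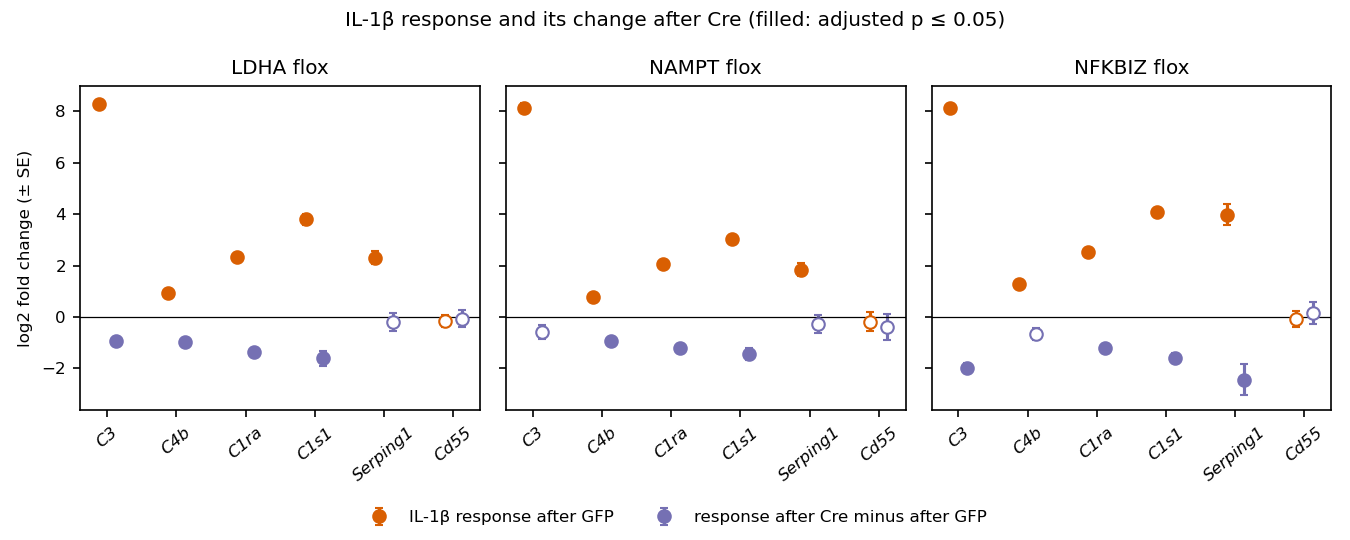
The log2 fold change with IL-1β in GFP cells (orange) and the change of that response after Cre (purple) for 6 complement genes in each floxed line, with SE as bars and filled points at an adjusted p of 0.05 or less. In NFKBIZ flox the C3 response of 8.13 changed by −1.98, and in LDHA flox and NAMPT flox the responses of C4b, C1ra and C1s1 changed by −1.62 to −0.93.

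In the LDHA flox and NAMPT flox lines, the C1 proteases fell most among the members called after Cre under IL-1β, and C3 changed little. In LDHA flox 5 of 9 members tested fell (34.0% of genes called) and 5 of 8 in NAMPT flox (48.4%), the same genes in each (C3, C4b, C1ra, C1s1 and Serping1). The count in NAMPT flox was not far above the share of all genes called, so that the sizes carry the description. The median log2 fold change was −0.60 over the 6 and −0.43 over the 7 members whose place in the test did not come from 1 condition alone, and −0.016 and −0.03 over all genes.

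C1ra went from 85.6 and 82.6 CPM to 19.3 and 18.4 in LDHA flox (log2 −2.13 ± 0.09, edgeR adjusted p = 1.43e-07) and from 63.8 and 55.8 to 14.2 and 14.0 in NAMPT flox (log2 −2.07 ± 0.10, edgeR adjusted p = 5.22e-08). C1s1 went from 29.9 and 26.0 CPM to 7.31 and 7.23 (log2 −1.92 ± 0.18, edgeR adjusted p = 3.14e-05), and from 20.4 and 20.4 to 5.11 and 5.01 (log2 −1.99 ± 0.15, edgeR adjusted p = 1.6e-06). Both proteases were thus at 22.4% to 26.0% of their GFP level in these lines.

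C3 went from 488 and 478 CPM to 357 and 361 in LDHA flox (log2 −0.41 ± 0.07, edgeR adjusted p = 0.00215). In NAMPT flox it went from 380 and 384 CPM to 303 and 304 (log2 −0.32 ± 0.12, edgeR adjusted p = 0.044), a call that was lost without any 1 of the 4 libraries and with DESeq2 (adjusted p = 0.255). C4b fell by 0.53 ± 0.07 and 0.43 ± 0.08 on the log2 scale (edgeR adjusted p = 0.000335 and 0.000878). Serping1 fell by 0.67 ± 0.22 and 0.62 ± 0.23 (edgeR adjusted p = 0.0421 and 0.0443), and both calls were lost without any 1 of the 4 libraries concerned, the second also with DESeq2 (0.0703) and without a filter (0.0655). Cfd went from 54 and 29 counts to 18 and 14 in LDHA flox (log2 −1.10 ± 0.43, edgeR adjusted p = 0.0775) and from 15 and 27 to 10 and 7 in NAMPT flox (log2 −1.95 ± 0.79, edgeR adjusted p = 0.0641), neither past the threshold. The LDHA flox difference passed with voomWithQualityWeights (adjusted p = 0.0434), and the NAMPT flox difference with no minimum (−1.93, adjusted p = 0.0305), with library set as a block (−1.89, 0.0247) and without the set 1 GFP library with IL-1β (−2.59, 0.0353). Cfb in LDHA flox (log2 −0.97 ± 0.49, edgeR adjusted p = 0.156) and Cd55 (log2 0.24 ± 0.24 in LDHA flox) did not pass either.

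Without IL-1β, C1ra was lower and C4b higher after Cre in both of these lines, where 5.52% (LDHA flox) and 14.4% (NAMPT flox) of genes were called. C1ra went from 16.1 and 17.4 CPM to 10.3 and 9.77 in LDHA flox (log2 −0.75 ± 0.09, edgeR adjusted p = 0.00146) and from 14.6 and 14.8 to 8.63 and 7.52 in NAMPT flox (log2 −0.86 ± 0.11, edgeR adjusted p = 0.000365). C4b went from 83.7 and 77.2 CPM to 113 and 107 (log2 0.43 ± 0.07, edgeR adjusted p = 0.00803), a call lost without the set 1 Cre library (adjusted p = 0.084), and from 65.2 and 62.6 to 93.6 and 87.9 (log2 0.50 ± 0.08, edgeR adjusted p = 0.00156). C4b was therefore higher after Cre at rest and lower after Cre under IL-1β. C1s1 in NAMPT flox (log2 −0.54 ± 0.18, edgeR adjusted p = 0.0798) and C3 in LDHA flox (log2 0.52 ± 0.13, edgeR adjusted p = 0.105) missed the threshold.

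The IL-1β response itself differed between Cre and GFP for 4 of 9 members in LDHA flox (11.5% of genes called) and 3 of 8 in NAMPT flox (22.0%), all smaller after Cre. The C1ra response changed by −1.38 ± 0.12 and −1.21 ± 0.14 (edgeR adjusted p = 0.000143 and 0.000231) and the C1s1 response by −1.62 ± 0.29 and −1.45 ± 0.24 (edgeR adjusted p = 0.00655 and 0.00157). The C4b response changed by −0.96 ± 0.10 and −0.93 ± 0.11 (edgeR adjusted p = 0.00034 and 0.000198), which left C4b after Cre at 0.959 and 0.864 times its resting mean with IL-1β, against 1.92 and 1.67 times after GFP. C3 passed in LDHA flox (−0.93 ± 0.15, edgeR adjusted p = 0.00361, lost with voomWithQualityWeights at 0.0663) and not in NAMPT flox (−0.58 ± 0.28, edgeR adjusted p = 0.173, and 0.12 without the set 1 resting Cre library but −0.94 with an adjusted p of 0.00207 without the set 2 one), where its resting level after Cre was 2.13 and 1.01 CPM. Without the set 1 resting Cre library of LDHA flox the C1s1 call was lost (adjusted p = 0.056).

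Other values moved with these results. Under IL-1β, Nfkbiz mRNA after Cre was at 40.1% of the GFP level in LDHA flox and 31.7% in NAMPT flox, and Mmp3, a matrix protease that IL-1β induces, was at 19.1%, 17.7% and 15.6% in LDHA, NAMPT and NFKBIZ flox. The 9 chondrocyte markers summed to 24014 to 24760 CPM after GFP and 13066 to 14360 CPM after Cre in LDHA and NAMPT flox with IL-1β, and to 26477 to 28683 and 32403 to 34606 CPM in NFKBIZ flox. The 6 fibroblast and perichondrium markers, in the same order, summed to 3055 to 3565 and 1826 to 2149 CPM, and to 819 to 853 and 680 to 698 CPM. The 4 endothelial markers summed to 4.73 to 7.37 CPM after GFP and 16.8 to 26.3 after Cre in LDHA and NAMPT flox. In NFKBIZ flox they summed to 3.26 to 4.31 and 6.70 to 7.74 CPM. The 6 adipocyte markers summed to 33.5 to 41.3 and 14.0 to 22.6 CPM in LDHA and NAMPT flox, and in NFKBIZ flox to 91.9 to 97.0 and 53.9 to 60.4 CPM. The part of these values in the complement results was not tested.

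The Cre effect under IL-1β differed between lines for most members, when tested as a difference over the 24 floxed libraries. Against LDHA flox, 5 of 9 members differed (27.0% of 16727 genes called) and against NAMPT flox 6 of 9 (36.3%). The 6 include Cfb, which met the CPM minimum only through GFP libraries with IL-1β. The C3 effect in NFKBIZ flox was lower by 1.91 ± 0.13 log2 units than in LDHA flox (−1.91, edgeR adjusted p = 8.46e-11) and by 1.99 ± 0.13 than in NAMPT flox (−1.99, edgeR adjusted p = 2.83e-11). Serping1 also fell further in NFKBIZ flox, by −1.31 ± 0.35 and −1.35 ± 0.36 (edgeR adjusted p = 0.00688 and 0.00483), although without the set 1 Cre library of LDHA flox (adjusted p = 0.0573) or 1 NFKBIZ flox GFP library (adjusted p = 0.0505) the first difference missed the threshold.

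The C1 proteases showed the opposite order. Their fall was smaller in NFKBIZ flox, for C1ra by 0.79 ± 0.12 against LDHA flox and 0.73 ± 0.13 against NAMPT flox (edgeR adjusted p = 3.53e-05 and 6.9e-05). For C1s1 the differences were 0.57 ± 0.17 and 0.66 ± 0.17 (edgeR adjusted p = 0.0135 and 0.00471), the first of which was lost without 1 of 3 libraries. The Cd55 effect was higher in NFKBIZ flox by 1.24 ± 0.45 and 1.59 ± 0.45 (edgeR adjusted p = 0.0425 and 0.00811). With voomWithQualityWeights (adjusted p = 0.0501) or without the library set term (edgeR adjusted p = 0.0569) the first difference missed the threshold. The first of these was lost without any 1 of 6 of the 8 libraries, and the second without the set 1 Cre library of NAMPT flox (adjusted p = 0.0917) or 1 NFKBIZ flox Cre library (adjusted p = 0.0518). Cfb differed from NAMPT flox (−2.62 ± 0.84, edgeR adjusted p = 0.0179, lost without any 1 of 3 libraries and 0.0168 with no minimum, which Cfb met only through GFP libraries with IL-1β) and not past the threshold from LDHA flox (−1.37 ± 0.81, edgeR adjusted p = 0.226). C4b did not differ past the threshold from either (−0.21 ± 0.17 and −0.30 ± 0.17), although the second was called with no minimum (−0.36, adjusted p = 0.0146).

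**Figure D3:**
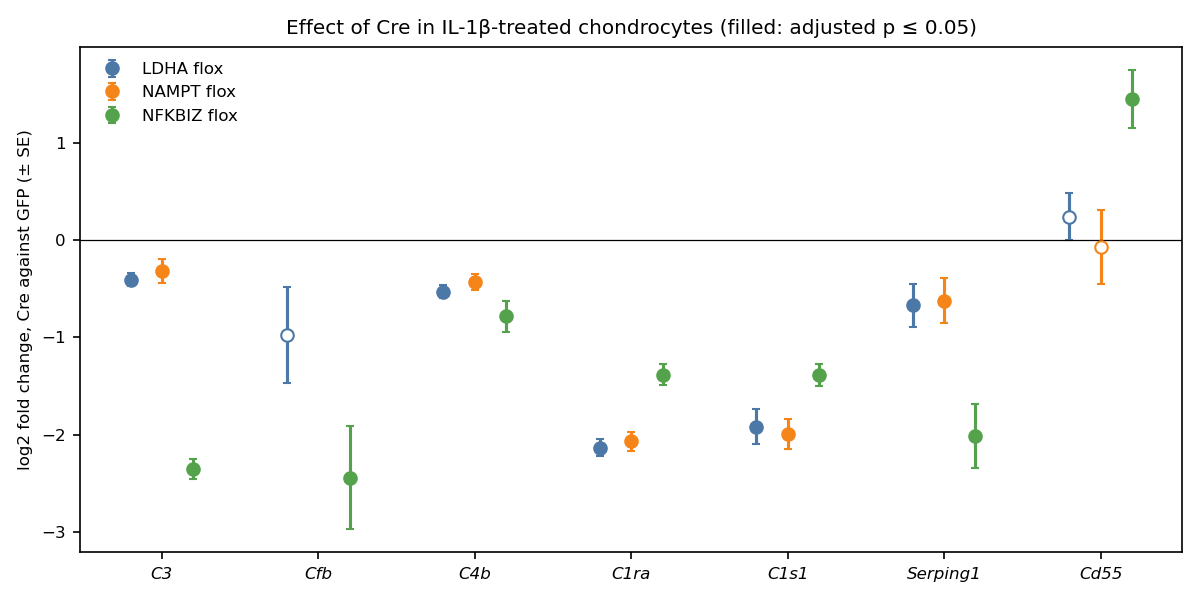
The log2 fold change of Cre against GFP under IL-1β for 7 complement genes in the 3 floxed lines, with SE as bars and filled points at an adjusted p of 0.05 or less. C3 changed by −2.35 in NFKBIZ flox against −0.41 and −0.32, while C1ra changed by −1.38 against −2.13 and −2.07; Cfb of NAMPT flox was under the CPM minimum and is not shown.

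In wild type cells, 2 libraries of set 2 went against their labels, and the comparisons that use them carry that limit. For C3 and Mmp3, 13.8 and 0.784 CPM were measured in the set 2 library labelled IL-1β, whereas its set 1 partner had 1481 and 9125 CPM. In the set 2 library labelled FX11 they stood at 2225 and 2016 CPM, whereas its set 1 partner had 5.62 and 1.20 CPM. The labels were kept as given. None of the 4 comparisons in wild type called any gene (0.0% of 15461) with edgeR's quasi-likelihood test. Unadjusted p-values under 0.05 were reached by 153 genes for IL-1β, 860 for IL-1β with FX11, 68 for FX11, each against untreated, and 102 for IL-1β with FX11 against IL-1β, and by 0 members in each. DESeq2 called 6, 153, 2 and 1 genes, and voomWithQualityWeights called 0 in each.

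The comparison of IL-1β with FX11 against untreated rests on neither of the doubted libraries except through the shared estimate of spread. There C3 went from 6.17 and 41.5 CPM to 1305 and 2192 (log2 6.22 ± 3.02, edgeR adjusted p = 0.881). C1ra went from 23.8 and 50.7 CPM to 159 and 239 (log2 2.43 ± 1.26, edgeR adjusted p = 0.894), C1s1 from 3.04 and 20.2 to 73.8 and 160, and Cfb from 2 and 6 counts to 118 and 86. In each of these 4 genes both treated libraries lay above both untreated libraries. Without the 2 libraries in doubt the standard errors were smaller (C3 log2 6.22 ± 1.10, edgeR adjusted p = 0.172), still past no threshold.

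Within set 1, where no label was in doubt, the library with IL-1β had 1481 CPM of C3, 194 of C1ra, 75.2 of C1s1, 372 of C4b and 28.4 of Serping1, and the library with IL-1β and FX11 had 1305, 159, 73.8, 283 and 13.2 CPM. These are single libraries with no replicate check. For IL-1β with FX11 against IL-1β the C3 change was 1.23 ± 2.44 with all libraries and 0.25 ± 1.08 without the 2 in doubt, and for FX11 against untreated it went from 5.58 ± 2.93 to −2.09 ± 1.20.

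Cfd, known as adipsin for its abundance in fat, was highest in the set 2 wild type libraries labelled untreated and FX11, at 10.4 and 3.08 CPM, and stood at 1.12 CPM in that labelled IL-1β and 0.264 with IL-1β and FX11. The set 1 wild type libraries had 0.0552 to 0.207 CPM. For IL-1β with FX11 against untreated the Cfd change was log2 −5.00 ± 2.45 (edgeR adjusted p = 0.882), not past the threshold. In set 2 the 6 adipocyte markers summed to 355 CPM in the library labelled untreated and 328 in FX11. They summed to 405 CPM in that labelled IL-1β and 169 with both, which is not the order of Cfd. In set 1 they summed to 33.3 to 108 CPM. Fabp4 led at up to 342 CPM, while Lep had at most 7 counts. The part of such cells in the Cfd level was not tested.

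**Figure D4:**
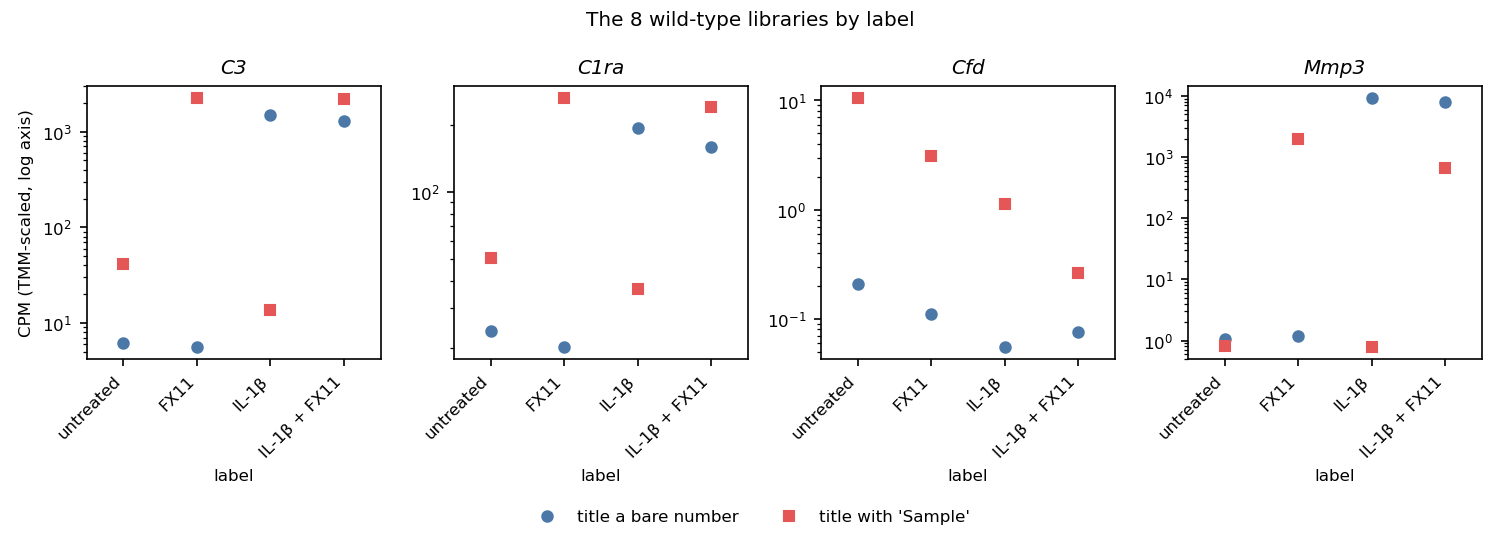
Level of C3, C1ra, Cfd and the IL-1β-induced protease Mmp3 in the 8 wild type libraries (CPM on a log axis), by label and by title style (circles set 1, squares set 2). The set 2 libraries labelled FX11 and IL-1β lie at 2225 and 13.8 CPM of C3, opposite to their set 1 partners at 5.62 and 1481 CPM.

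Of 46 other complement genes on a list of components, receptors and regulators, 16 could be tested in the GFP controls. With IL-1β 10 were called, 9 higher and 1 lower. This count lies near the 56.2% called among all genes and says little on its own. Clu, the fluid-phase inhibitor clusterin, rose by 0.93 ± 0.05 on the log2 scale (edgeR adjusted p = 1.14e-10) and the collectin Colec12 by 0.84 ± 0.08 (6.06e-08). The paralogs C1rb (2.35 ± 0.19) and C4a (0.95 ± 0.13) rose with C1ra and C4b, whose sequences they partly share, and C1rb met the minimum through the libraries with IL-1β alone. Itgam (0.81 ± 0.23) and Itgb2 (0.55 ± 0.21), which together form complement receptor 3 of leukocytes, Masp2 (0.87 ± 0.27) of the lectin pathway and the C5a receptor C5ar1 (0.48 ± 0.20) rose at means of 1.27 to 2.14 CPM with IL-1β. Not every line showed these rises. Mean Itgam in NFKBIZ flox was 1.12 CPM without and 1.09 with IL-1β, and mean C5ar1 in NAMPT flox was 0.800 and 0.850 CPM. The 10 leukocyte markers summed to 15.1 to 23.0 CPM without and 23.0 to 46.3 CPM with IL-1β in the same libraries, and their part in these rises was not tested. C1qa, C1qb and C1qc are on both this marker list and the complement list. Of the markers, Cd68 had the highest median over all 32 libraries (15.7 CPM). Cd59a, which blocks the membrane attack complex, fell by 1.04 ± 0.30 on the log2 scale (edgeR adjusted p = 0.00643).

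After Cre under IL-1β in NFKBIZ flox, 4 of 20 other complement genes tested were called lower and 1 higher, beside 17.4% called among all genes. Clu changed by −0.98 ± 0.10 (edgeR adjusted p = 1.72e-05), from 177 and 182 CPM to 94.9 and 88.9, Colec12 by −0.83 ± 0.09 and C1rb by −1.07 ± 0.29. C6, a component of the membrane attack complex, had 24 and 18 counts after GFP and 0 and 0 after Cre, at least 15.3-fold lower when set against a floor of 3 counts over both Cre libraries. It is counted among the 4, although it met the minimum through 1 GFP library with IL-1β alone, and without such genes 3 of 18 were lower. Masp1, a protease of the lectin pathway, was higher by 0.93 ± 0.21 (edgeR adjusted p = 0.0086). In LDHA flox 9 of 23 were called, 5 lower and 4 higher, beside 34.0% called among all genes. In NAMPT flox 11 of 22 were called, 6 lower and 5 higher, beside 48.4%. Both counts lie near the share over all genes and say little on their own. Without the genes that met the minimum through 1 condition alone, among them C1rb, they were 4 lower and 1 higher of 18 and 5 lower and 3 higher of 16. Colec12 (−1.02 ± 0.09 and −0.98 ± 0.11) and C1rb (−2.05 ± 0.49 and −1.71 ± 0.53) were lower in both of these lines. Clu rose by 0.45 ± 0.07 in NAMPT flox (edgeR adjusted p = 0.000409), whereas it fell in NFKBIZ flox.

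The genes whose level over the 16 condition means was most like that of C3, among 10874 genes with a mean of at least 5 CPM, were Hp (Pearson r = 0.99), Map3k8 (0.985), Lbp (0.984), Ccl7 (0.981) and Zc3h12a (0.977). Hp and Lbp encode acute-phase proteins, and with IL-1β in NFKBIZ flox Hp was at 1950.3 and 1917 CPM after GFP and 116 and 128 CPM after Cre. For Cfd the closest were Znrf3 (0.806), Tpgs2 (0.762), Ngp (0.759), Tnmd (0.756) and Spon1 (0.753). These correlations describe 16 points that share libraries and scaling. The wild type IL-1β and FX11 means each include a library that goes against its label. For Cfd, the highest mean, that of untreated wild type, averages 0.207 and 10.4 CPM and so rests on 1 library.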

How the data were processed

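RNA was measured in 32 libraries of primary mouse chondrocytes. The authors depleted ribosomal RNA (KAPA Ribo-Erase), aligned reads with STAR to the Ensembl release 76 assembly (GRCm38) and counted uniquely aligned unambiguous reads per gene with featureCounts. The deposited values are raw counts. CPM (count over library total) and RPKM (CPM per kilobase of gene) were deposited beside them by the authors, and were not used in a test. The submitters' processing notes name STAR 2.0.4b and featureCounts 1.45, and whether counting used strand is not given in the sources used here.

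Each library took its group from its labels. Comparisons were fitted on the counts with edgeR 4.0.16 (R 4.3.3), by TMM scaling and the two-sided quasi-likelihood test, over the 8 libraries of a line, the 12 GFP libraries (line and library set as covariates) or the 24 floxed libraries (library set as covariate). Genes above 1 CPM in at least 1 library, or 5 of the 12 GFP libraries, were tested, 355 ribosomal RNA genes were left out, and calls were made at 0.05 or less after Benjamini-Hochberg adjustment over all genes tested. SE is the log2 fold change over the square root of F. Printed CPM are counts over each library's total scaled by TMM factors from all 32 libraries. DESeq2 1.42.0, voomWithQualityWeights of limma 3.58.1, RLE scaling, no filter, other library sets and leaving out each library were alternatives. The fits were tested on simulated data. Figures used Python 3.11.15 and matplotlib 3.10.9. Gene names and coordinates came from GENCODE M21. RefSeq promoters (GRCm38.p6) matched 5 of the 9 members. The study's own test was limma's voomWithQualityWeights, used here as an alternative.

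All 9 members are reported. Other complement genes are named if called with IL-1β in the GFP controls or with Cre under IL-1β in NFKBIZ flox, up to 12. An item of that list is not reported here. The members, lists and comparisons were chosen with earlier results of these data known. Comparisons share libraries: the IL-1β response after GFP and the Cre effects use the same GFP libraries.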

Additional observations from a re-analysis of the deposited data

Results flagged for a closer look

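The Cre effect under IL-1β differed between lines by a test of the difference for the following members, in log2 units of NFKBIZ flox minus the other line. Against LDHA flox the values were −1.91 for C3, −1.31 for Serping1, 0.79 for C1ra, 0.57 for C1s1 and 1.24 for Cd55. Against NAMPT flox they were −1.99 for C3, −2.62 for Cfb, −1.35 for Serping1, 0.73 for C1ra, 0.66 for C1s1 and 1.59 for Cd55. Cfb met the CPM minimum only through GFP libraries with IL-1β, where it was high. Its difference ranged from −3.43 to −2.06 with 1 library left out.

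Among 18 sets of 6 GFP libraries, which pool the 3 lines, Dixon's ratio was above its 95% critical value in 2, and chance gives about 1 in 20. The NAMPT flox library of set 1 stood apart in Cfb without IL-1β (0.304 CPM, 12 counts), and 1 NFKBIZ flox library had the lowest Cd55 with IL-1β (1.78 CPM).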

How the results depend on the processing

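Of the counts of members called, 96 of 104 stayed within 1.5 times the value given when 1 library was left out, and 99 of 113 did under the other alternatives. Member log2 fold changes kept their direction and side of the threshold in 467 of 517 and 456 of 517 refits. Fitting all 32 libraries together, the 2 doubted wild type libraries included, left fewer members called. With IL-1β in GFP cells 2 were called in LDHA flox and 1 in NAMPT flox. For Cre under IL-1β it was 0 in LDHA flox, 1 in NAMPT flox and 0 in NFKBIZ flox. For Cre without IL-1β it was 0 in LDHA and NAMPT flox, the difference of responses gave 0 in all 3 lines, and IL-1β with FX11 against untreated gave 2. DESeq2 called 3 members for Cre under IL-1β in NAMPT flox and 1 for Cre without IL-1β in NFKBIZ flox, where no filter also called 1. The cause of these changes was not tested.

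With 1 library left out, 1 to 2 members were called for Cre without IL-1β in LDHA flox, 3 to 4 for Cre under IL-1β in NAMPT flox and 2 to 5 for NFKBIZ flox minus LDHA flox. Estimates that changed sign were the C3 response difference in NAMPT flox (−0.94 to 0.12), the Cd55 response difference in NFKBIZ flox (−0.25 to 0.47), C3 for IL-1β in wild type (−0.78 to 6.92) and C3 for FX11 in wild type (−2.08 to 7.52, and −2.09 without the 2 doubted libraries, an alternative chosen after seeing the data).

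With library set as a replicate block, 5 members were called for IL-1β in the GFP controls. In LDHA flox the block gave 7, 5, 2 and 4 for IL-1β, Cre with IL-1β, Cre without it and the difference of responses, and in NAMPT flox 5, 6, 2 and 4. Wild type gave 0 in each. In NAMPT flox it brought Cfd for Cre under IL-1β (−1.89, adjusted p = 0.0247) and the C3 response difference (−0.60, 0.0348) past the threshold. Set differences of 2 conditions correlated at 0.42 to 0.67 in LDHA flox, 0.45 to 0.61 in NAMPT flox, −0.25 to 0.73 in wild type and −0.36 to 0.13 in NFKBIZ flox, where the numbers are accession order only and no block was fitted.

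Over all genes, counts moved by more than 1.5 times in 54 refits. The block raised Cre without IL-1β from 877 to 1994 (LDHA flox) and 2319 to 4311 (NAMPT flox) and the difference of responses from 1825 to 3374 and 3552 to 5648. The fit of all 32 libraries lowered IL-1β in GFP cells from 4424 to 1077, 5642 to 1664 and 4120 to 1589 (LDHA, NAMPT, NFKBIZ flox), Cre under IL-1β from 5392 to 2321, 7808 to 4370 and 2666 to 617, Cre without it to 72, 214 and 23, and the difference of responses to 214, 525 and 26. In NFKBIZ flox Cre without IL-1β went from 40 to 71 with DESeq2 and 170 without a filter, and the difference of responses from 797 to 1325 without a filter. With 1 library left out the lowest counts were 289 and 1332 for Cre without IL-1β (LDHA, NAMPT flox), 1081 for the LDHA flox difference of responses, 2487 and 1290 for IL-1β and Cre under IL-1β in NFKBIZ flox, 21 for Cre without IL-1β and 344 to 1892 for the difference of responses there. With 2 libraries a group and at most 57 counts for Cfb, Cfd and C2 in the floxed lines, small differences of these genes were not detectable at this depth.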
